A study of Mus musculus with 2 samples.

Results

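The hair follicle stem cell and niche genes examined here are Cd34, Lgr5, Lgr6, Sox9, Lhx2, Nfatc1, Lrig1, Gas1, Foxc1 and Tbx1. They were found by symbol among the gene spots of both arrays, where 24 spots of 15 probes carried these 10 names, out of 43379 gene spots of 41174 probes. The samples were total RNA of primary epidermal keratinocytes from FVB/NJ mice at day 20 after birth, either wild type or K14-caSmad1. K14-caSmad1 mice carry a transgene for a constitutively active Smad1, a transcription factor of bone morphogenetic protein (BMP) signalling. The name points to the keratin 14 promoter, which is active in basal epidermal cells and in the outer root sheath of the follicle. How many animals entered each RNA sample is not given in the sources used here. RNA of both genotypes was hybridised together on each of 2 two-colour arrays, which the labels call biological replicates 1 and 2. Wild type was in Cy3 and K14-caSmad1 in Cy5 each time, so that dye and genotype cannot be told apart. The comparison asks how activating Smad1 in keratinocytes is accompanied by differences in the transcripts that mark and maintain follicle stem cells.

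Hair follicles renew themselves from stem cells in the bulge, a niche in the outer root sheath, and in the neighbouring hair germ and isthmus. BMP signals hold bulge stem cells in a resting state and Wnt signals drive them into hair growth, while a set of transcription factors keeps their identity. Some of the 10 genes encode receptors or surface proteins by which these cells are recognised, and others encode transcription factors of quiescence and self-renewal.

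The arrays repeated each other closely. The difference between the log2 ratios of replicates 1 and 2 had an SD of 0.0946 over 12287 probes with 1 spot above background in both channels. Spot noise, estimated from 94 probes with repeated spots, predicts an SD of 0.107 there. Averaging those repeated spots first gave 0.0519, above the 0.0347 predicted. The arrays were counted, as the more cautious choice, as 1 sample of each genotype, although these spreads cannot show whether they shared RNA. Values are given for each array or as the mean of both, and no error between animals is available. A gene was called where replicates 1 and 2 each showed a difference of 2-fold or more in a shared direction. Of 11752 genes tested, 13.9% were called, 4.08% as higher and 9.8% as lower in K14-caSmad1. With median centring in place of loess normalisation the median log2 ratio of all genes moved from -0.03 to 0.22, and the share of higher genes among those called moved from 29.4% to 57.8%. In limma's fit with Benjamini-Hochberg adjustment, 87.1% of all genes passed 0.05, and so did 8 of the 9 tested members, 4 higher and 4 lower, a share close to that background. Which members passed depended on the processing. With spots on a non-uniform local background kept in the background fit, only Foxc1, Tbx1 and Gas1 did. The share of all genes under that setting is not given here. Smad1 itself had log2 ratios of 0.28 and 0.26 on replicates 1 and 2, and whether its probe reads the transgene is not known. The keratin genes Krt5 and Krt14 of basal keratinocytes were well above background in both channels of both arrays.

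Foxc1 and Tbx1, transcription factor genes of bulge stem cells, were lower in K14-caSmad1 keratinocytes by 2.95-fold and 2.67-fold. Gas1, a Hedgehog co-receptor gene, had the opposite difference, 1.91-fold higher, just short of the 2-fold rule. The other tested members lay within 1.43-fold of wild type, but with the scanner's processed signals 2 that were dim in a channel went further, Nfatc1 to a log2 ratio of 1.35 and Cd34 to -1.17. Lgr5 was not well above background in either genotype. Of the 9 tested members 2 were called lower, where 9.8% of all tested genes were, and 0 were called higher, where 4.08% were. The median log2 ratio of the 9 was 0.04, against -0.03 over all tested genes, with 5 members above 0 and 4 below, of which Lhx2 turned with median centring. The members therefore did not shift in 1 direction as a list.

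**Figure D1:**
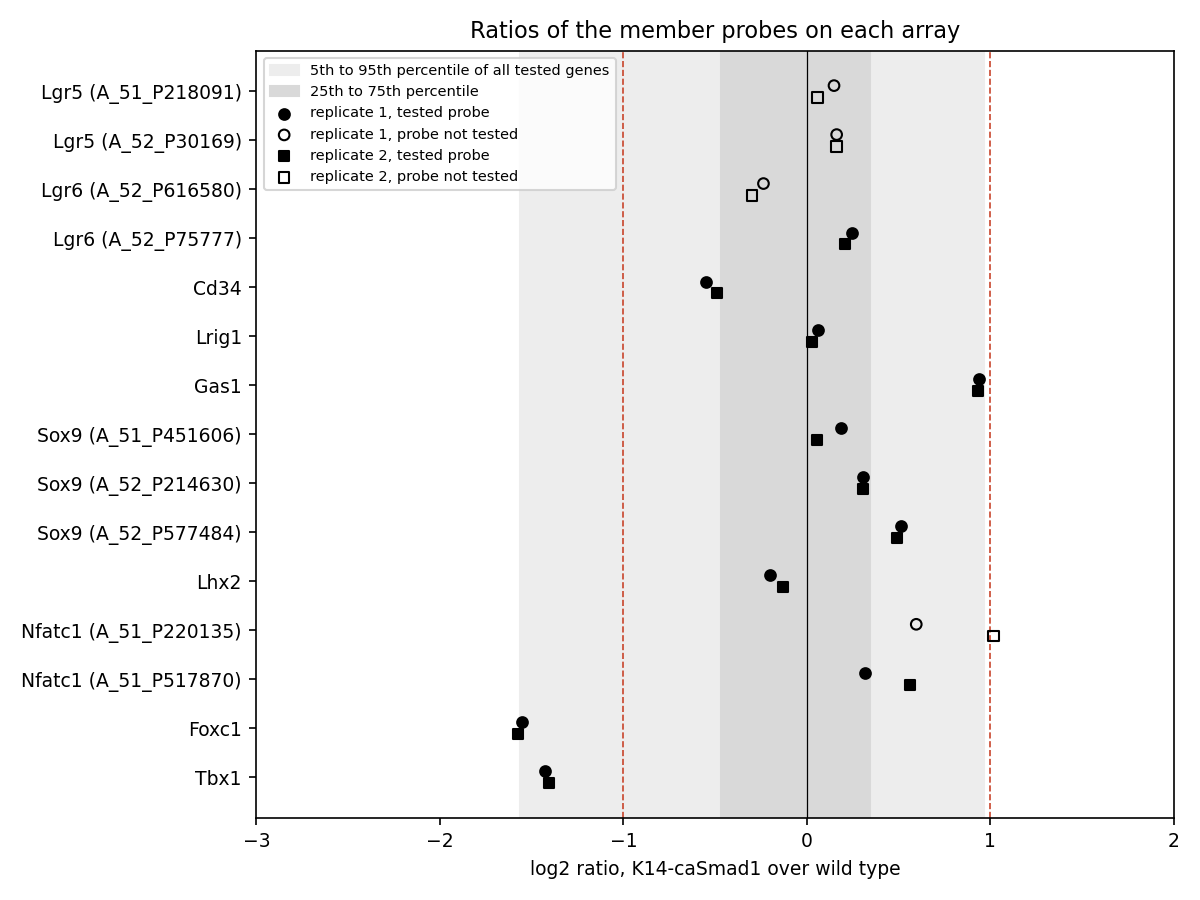
Log2 ratio of K14-caSmad1 over wild type for each of the 15 probes of the 10 genes (rows), with replicate 1 as circles and replicate 2 as squares, filled where the probe was tested and open where it was not well above background on both arrays of either channel. Shaded bands give percentile ranges of all tested genes and dashed lines mark 2-fold: Foxc1 and Tbx1 lie left of the lower line on both arrays, and Gas1 lies just inside the upper line.

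Foxc1 encodes a forkhead transcription factor that keeps activated bulge stem cells able to return to rest. Its probe, at chr13:31901257-31901316 (mm9, plus strand), read a normalised log2 signal of 12.37 in wild type and 10.82 in K14-caSmad1 on replicate 1. On replicate 2 the signals were 13.73 and 12.16. The log2 ratios were -1.55 and -1.57, so that the probe was lower in K14-caSmad1 on both arrays, and 5.02% of all tested genes had a lower ratio. Limma's adjusted p of 3.00e-05 measures only how closely the arrays repeated each other. The K14-caSmad1 signal of replicate 2 came close to the wild-type signal of replicate 1, so the groups are apart within each array but only narrowly across arrays. The log2 ratio stayed between -1.60 and -1.27 under every setting tried.

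Tbx1 encodes a T-box transcription factor that supports self-renewal of bulge stem cells and tempers their response to BMP. Its probe, at chr16:18581816-18581875 (mm9, minus strand), read 12.34 in wild type and 10.91 in K14-caSmad1 on replicate 1, and 12.08 and 10.68 on replicate 2. Both wild-type signals lay more than 1 log2 unit above both K14-caSmad1 signals. The log2 ratios were -1.43 and -1.40, and 5.85% of all tested genes had a lower ratio. With 36 spots on a non-uniform local background kept in the background fit of replicate 1, the mean was -1.19 and the gene no longer passed the 2-fold rule on both arrays.

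Gas1 encodes a membrane-anchored protein, first found in growth-arrested cells, that binds Hedgehog ligands together with their receptor. Its probe, at chr13:60276399-60276458 (mm9, minus strand), read 10.16 in wild type and 11.10 in K14-caSmad1 on replicate 1, and 10.03 and 10.96 on replicate 2. Both K14-caSmad1 signals lay above both wild-type signals. The log2 ratios were 0.94 and 0.93, above those of 94.5% of tested genes. With median centring the mean was 1.24, and with the scanner's processed signals 1.27, and under both the gene passed the 2-fold rule.

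The upstream sequences of these 3 genes are shown because they carry the largest differences among the members. They are the 250 bases before the RefSeq transcript start on GRCm38.p6, for Tbx1 the outermost of its 2 starts, written 5′ to 3′ on the gene's strand. Capitals mark GGCGCC, a GC-rich element that BMP-activated Smads can bind, which reads the same on both strands.
Foxc1, chr13:31806396-31806645, plus strand: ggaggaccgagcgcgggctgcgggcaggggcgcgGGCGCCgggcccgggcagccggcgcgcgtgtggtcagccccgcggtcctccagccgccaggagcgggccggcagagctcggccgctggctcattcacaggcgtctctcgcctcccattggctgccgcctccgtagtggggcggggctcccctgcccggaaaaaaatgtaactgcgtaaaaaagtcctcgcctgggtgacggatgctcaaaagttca
Tbx1, chr16:18590672-18590921, minus strand: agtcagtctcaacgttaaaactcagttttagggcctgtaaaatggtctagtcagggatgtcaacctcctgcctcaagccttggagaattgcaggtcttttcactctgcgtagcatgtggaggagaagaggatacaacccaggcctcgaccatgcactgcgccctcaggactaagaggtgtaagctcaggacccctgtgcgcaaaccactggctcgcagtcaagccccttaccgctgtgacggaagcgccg
Gas1, chr13:60177536-60177785, minus strand: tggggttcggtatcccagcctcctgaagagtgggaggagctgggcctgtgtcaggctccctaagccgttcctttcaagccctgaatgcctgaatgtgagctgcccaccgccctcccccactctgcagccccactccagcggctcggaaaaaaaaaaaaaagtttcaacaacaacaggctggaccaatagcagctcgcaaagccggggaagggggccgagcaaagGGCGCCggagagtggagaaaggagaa
The windows of Foxc1, which was lower, and of Gas1, which was higher, each hold the element once, and that of Tbx1 holds none. Among the 9 upstream windows found for 7 members it stood in 3, the other being 1 of the 2 windows of Lhx2. It stood in 9.59% of all 32851 windows of the same length. The 3 member windows that hold it had a G and C content of 70.8% for Foxc1, 58.8% for Gas1 and 72.8% for Lhx2. Windows without it had 71.6% for Lrig1, 68.4% for the other Lhx2 window, 65.2% for Lgr6 and 46.4% for Cd34. The Tbx1 windows, also without it, had 54.4% for the one shown and 67.2% for the other. The palindromic Smad element GTCTAGAC (0.167% of all windows, both strands searched) and the Tcf/Lef element CTTTGAT (3.21%, both strands) were in none of the 9 windows. A match describes letters in the window and is not evidence of binding.

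Lgr5 and Lgr6 encode receptors for R-spondins, secreted proteins that strengthen Wnt signals. Lgr5 marks stem cells of the lower bulge and hair germ, and Lgr6 marks cells of the isthmus above the bulge. Neither of the 2 Lgr5 probes, which lie 11839 bases apart on chromosome 10, was well above background in any channel of any array. Their normalised log2 signals ran from 7.30 to 8.11 in wild type and from 7.46 to 8.26 in K14-caSmad1, below the lowest signals called well above background, which were 8.62 to 8.77. No fold can therefore be given for Lgr5. One Lgr6 probe, at chr1:136880538-136880597 (mm9, minus strand), was above background throughout, with 9.84 in wild type and 10.09 in K14-caSmad1 on replicate 1 and 9.71 and 9.92 on replicate 2. Its log2 ratios were 0.25 and 0.21, a difference of 1.17-fold that was smaller than the 2-fold rule. The other Lgr6 probe, which lies 3244 bases away, was not well above background in any channel. Only this other probe is assigned to a RefSeq record on the array, so the 1.17-fold difference rests on a probe without one. The related receptor gene Lgr4 had log2 ratios of 0.35 and 0.34, while a second Lgr4 probe gave -0.56.

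The probes of some members lie at different places of the gene and did not give the same value. Whether they read the same transcript was not determined. Below are the Lgr6 probe that stayed below background and the dimmest of 3 Sox9 probes, both written 5′ to 3′ as on the array and in lower case throughout, since no part is singled out.
Lgr6 probe, chr1:136883782-136883841, mm9, minus strand: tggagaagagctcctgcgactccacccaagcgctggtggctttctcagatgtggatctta
Sox9 probe, chr11:112644310-112645162, mm9, plus strand: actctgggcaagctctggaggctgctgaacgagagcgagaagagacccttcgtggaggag
The Sox9 probe has 60 bases but spans 853 bases of the genome, so its match to the genome is split. Both probes were picked among the dimmer probes of their gene for having more than 1 sense frame free of stop codons. The Lgr6 probe has 3 such frames and the Sox9 probe 2. The second Nfatc1 probe, also with 2, is not shown. Which exon or untranslated region each probe of the array lies in was not determined.

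Sox9 encodes a transcription factor required to set aside and maintain bulge stem cells. One of its probes was spotted 10 times on each array, which gives this member the best measured ratio of the 10. On replicate 1 its log2 ratio was 0.31 ± 0.04 (SD over 9 spots, 1 flagged spot left out), with a range from 0.25 to 0.38. On replicate 2 it was 0.31 ± 0.05 (SD over 10 spots), with a range from 0.22 to 0.38. All 19 spots lay above 0, and the mean of both arrays corresponds to 1.24-fold. A second probe, at chr11:112647008-112647067 (mm9), gave 0.51 and 0.49, outside the range of the repeated spots. The probe with the split match gave 0.19 and 0.06, and was above background in wild type on 1 of 2 arrays. All 3 Sox9 probes were thus on the higher side in K14-caSmad1 and none reached 2-fold, while the size of the difference depended on the probe.

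Lhx2 encodes a LIM-homeodomain transcription factor that maintains bulge stem cells in their undifferentiated state. Its probe, at chr2:38224933-38224992 (mm9), read 11.73 in wild type and 11.53 in K14-caSmad1 on replicate 1, and 11.99 and 11.86 on replicate 2. The log2 ratios were -0.20 and -0.13, and the signals of the genotypes overlapped across arrays. With median centring the mean turned to 0.14, so no direction is given for this gene.

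Nfatc1 encodes a calcineurin-dependent transcription factor that BMP signals induce in the bulge and that holds stem cells at rest. Its brighter probe was above background on both K14-caSmad1 arrays, at 8.95 and 9.39, and on 1 of 2 wild-type arrays, at 8.63 and 8.83. The log2 ratios were 0.32 and 0.56, the widest gap between arrays among the tested members, and the mean of 0.44 was below 2-fold. A second Nfatc1 probe, which lies 41775 bases away, was above background on 1 K14-caSmad1 array and on no wild-type array. Its K14-caSmad1 signal was 8.43 on replicate 1, below the lowest signal called well above background there, and 9.13 on replicate 2. No bound on its fold is therefore given. With the scanner's processed signals the brighter probe gave 1.35, past the 2-fold rule. The direction was higher under every setting that gave a value, with means from 0.28 to 1.35.

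Cd34 encodes a surface sialomucin by which bulge cells of the mouse are sorted. Its probe, at chr1:196787392-196787451 (mm9), read 9.43 and 9.42 in wild type on replicates 1 and 2, and 8.88 and 8.93 in K14-caSmad1, where it was above background on 1 of 2 arrays. The signals did not overlap, and the log2 ratios of -0.55 and -0.49 correspond to 1.43-fold lower, short of the 2-fold rule. The mean ran from -0.29 with all spots in the background fit to -1.17 with the scanner's processed signals, always below 0. Lrig1 encodes a membrane protein that restrains ErbB receptors and marks quiescent cells of the isthmus. It read 12.53 and 12.27 in wild type and 12.59 and 12.30 in K14-caSmad1, log2 ratios of 0.06 and 0.03 that were the smallest among the members. Lrig1 was the 1 tested member that did not pass limma's threshold in the fit as reported (adjusted p = 0.19). It passed without background subtraction, in the deposited table and with median centring, where it stood at 0.34.

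**Figure D2:**
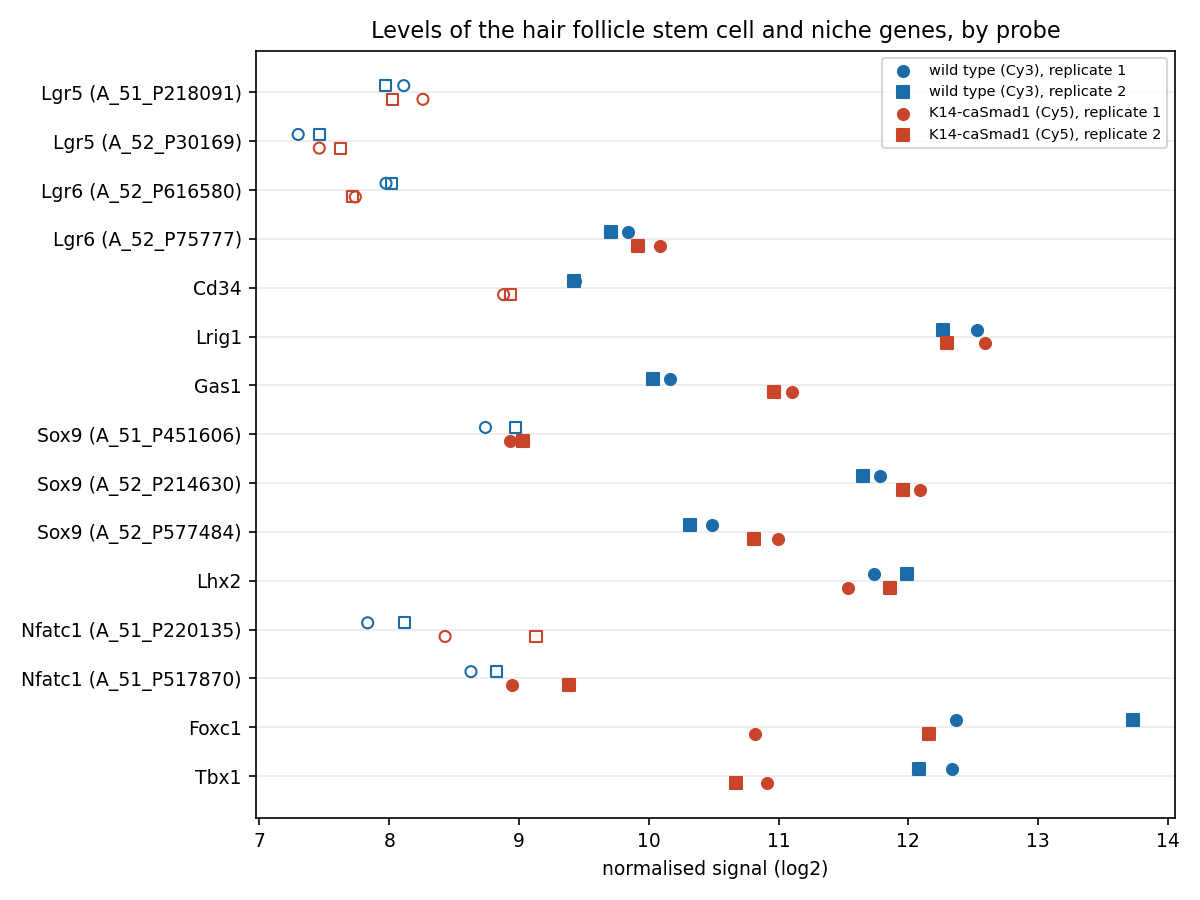
Normalised log2 signal of each probe of the 10 genes (rows) in wild type (blue) and K14-caSmad1 (red) on replicate 1 (circles) and replicate 2 (squares), open where that channel was not well above background on both arrays. Both Lgr5 probes and 1 Lgr6 probe lie left of 8.3 in all channels, and the Foxc1 symbols of the arrays lie more than 1 log2 unit apart in each genotype.

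**Figure D3:**
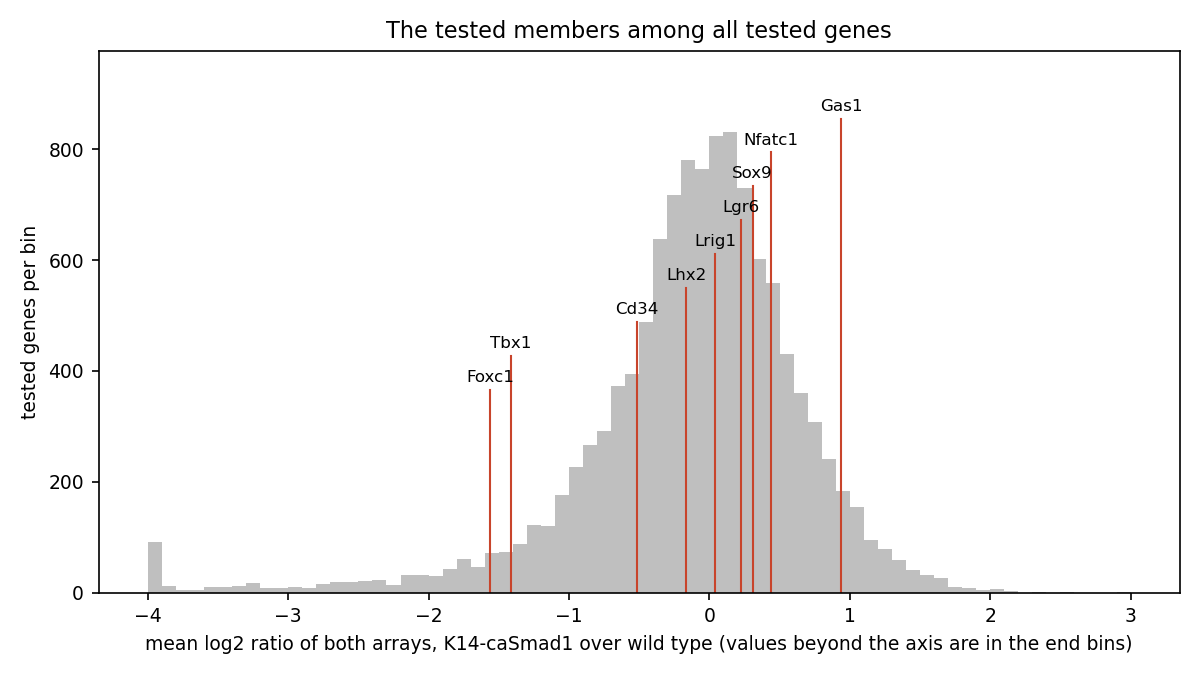
Histogram of the mean log2 ratio of both arrays over all 11752 tested genes, with a red line for each of the 9 tested members. Foxc1 and Tbx1 stand in the lower tail, Gas1 near the upper tail, and Cd34, Lhx2, Lrig1, Lgr6, Sox9 and Nfatc1 lie in the bulk of the genes.

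Listed family relatives of the members went both ways. Foxc2, the closest relative of Foxc1, had log2 ratios of -0.30 and -0.32. Among T-box genes Tbx2 was at least 3.5-fold lower, not well above background in K14-caSmad1, whereas Tbx3 stood at 0.64 and 0.67. Tbx15 and Tbx18 did not pass the detection filter. Among NFAT genes Nfatc3 was higher, at 1.29 and 1.27, and Nfat5 stood at 0.52 and 0.50, while Nfatc2 and Nfatc4 were below background. Lrig2 and Lrig3 stood at -0.02 and 0.06, with Lrig1 at 0.04. Of 15 relatives 8 were tested, 1 was called higher and 1 lower, and their median was 0.20. With all spots in the background fit neither was called, Nfatc3 standing at 0.83 and Tbx2 at -1.39, and averaging all probes of each gene gave a median of -0.01.

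Genes of the pathways that act through the members were listed separately, with 20 of 31 tested, 2 called higher and 0 lower, and a median of 0.00. With the processed signals 3 were called higher and 2 lower. In the calcineurin branch that activates Nfatc1, the catalytic subunit gene Ppp3ca was higher (1.65 and 1.60), and Ppp3cb (0.28) and the feedback regulator Rcan1 (0.58) were below 2-fold. In the Wnt branch the co-receptor gene Lrp5 was higher (1.01 and 1.02), though with all spots in the background fit it stood at 0.93. Rnf43, a ligase that removes Wnt receptors and is held back by R-spondins, stood at -0.58, and the R-spondin genes Rspo1, Rspo2, Rspo3 and Rspo4 did not pass the detection filter. In the Hedgehog branch the co-receptor gene Cdon stood at 0.64 and Boc at -0.15, whereas the receptor and target gene Ptch1 was at least 1.18-fold lower and Gli1 was not well above background. In the BMP branch the receptor gene Bmpr1a stood at 0.54 and the ligand gene Bmp4 at -0.98. Of the ErbB genes that Lrig1 restrains, Egfr (-0.66), Erbb2 (-0.46) and Erbb3 (-0.89) were all below 0 at their brightest probe, while other probes reached 0.47 for Egfr and 0.16 for Erbb2.

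Other genes of the bulge, hair germ and isthmus also went both ways. Of 32 listed genes 21 were tested, 3 were called higher and 3 lower, and their median was 0.12. When all probes of each gene were averaged, 2 were called higher and 1 lower. The higher genes were Postn (2.01), a matrix protein, Itga6 (1.54 and 1.46 on replicates 1 and 2), an integrin subunit of basal cells, and Id2 (1.23), a BMP target. The lower genes were Col18a1 (-1.96), a basement membrane collagen, Foxp1 (-1.71), a forkhead gene of bulge quiescence, and Prdm1 (-1.33), a transcriptional repressor of the isthmus and sebaceous gland. Col18a1 differed widely between replicates 1 and 2, at -2.38 and -1.54. Another tested probe gave -0.02 for Col18a1, 0.13 for Foxp1 and -0.01 for Id2. The bulge keratin gene Krt15 stood at 0.46 and the isthmus gene Plet1 at 0.63, with -0.41 at a second Plet1 probe. Runx1, Cdh3, Gli1, Tnc, Grem1, Eps8, Dkk3 and Etv5 were not well above background in any channel.

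Genes of the growing hair differed far more than the stem cell genes. Of 16 tested hair shaft and inner root sheath genes all 16 were called lower, with a median of -4.79. Among regulators of the hair matrix 7 of 10 tested genes were called lower and 1 higher (median -1.36), led by Msx2 (-3.19) and Tcf7 (-2.90), with Gata3 (1.41) higher. With all spots in the background fit 4 of these 10 were called lower. Summed over the hair shaft list, the normalised signal ranged from 2581700 to 2711540 in wild type and from 134798 to 135751 in K14-caSmad1. The part of this difference in the lower signals of Foxc1 and Tbx1 was not tested. In bulk RNA fewer cells of a type and less RNA per cell cannot be told apart. Of 12 basal keratinocyte genes 4 were called higher and 0 lower, with a median of 0.68. Suprabasal keratinocyte genes had the same median, 0.68, with 3 of 10 called higher and 0 lower. Across settings 3 to 5 of the basal and 3 to 4 of the suprabasal genes were called higher. Of 6 outer root sheath genes 2 were called higher and 1, Krt75 of the companion layer, lower by 2.84-fold. Of 8 tested sebaceous gland genes 0 were called higher and 1 lower, Elovl3 (-3.20), with a median of -0.12.

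Some members are also expressed outside the follicle, Cd34 and Nfatc1 in endothelium and Foxc1 and Gas1 in dermal cells, and markers of such cells were read on the same arrays. Of 14 endothelial markers 5 were tested, 0 were called higher and 1 lower, Prox1 (-1.09). With the processed signals 4 of the 5 were called lower (median -1.78, against -0.90), and with all spots in the background fit, no background subtraction or median centring 0 were. Pecam1, Cdh5 and Kdr were not well above background in any channel. Summed over all 14 markers, of which 8 were not well above background in any channel, the signal was 6552 and 6853 in wild type and 4946 and 5209 in K14-caSmad1. Of 14 dermal fibroblast markers 8 were tested, 4 being called lower, among them Col1a1, at least 2.41-fold, and Col3a1, at least 3.15-fold, and 2 higher, Vim (1.39) and Sparc (1.21). With all spots in the background fit 0 were called lower, and with the processed signals 5 were (median -2.23, against -0.95). Over the 4 markers above background in both channels the median was 0.74. Summed over all 14 markers the signal, to which Thy1, Vim and Sparc gave most, was 25972 and 28377 in wild type and 35007 and 40103 in K14-caSmad1. Pdgfra, Lum and Dpt were not well above background. Of 14 dermal papilla markers 2 were tested and 0 were called, and Corin and Sox2 were not well above background. Of 8 tested melanocyte markers 3 were called lower and 0 higher (median -1.10). The melanocyte count was 0 with all spots in the background fit or no background subtraction, and 8 with the processed signals (median -2.72). Of 12 tested leukocyte markers 1 was called lower and 0 higher (median 0.13), while with median centring 0 were called lower and 3 higher. The part of these cells in the values of Cd34, Nfatc1, Foxc1 and Gas1 was not tested.

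**Figure D4:**
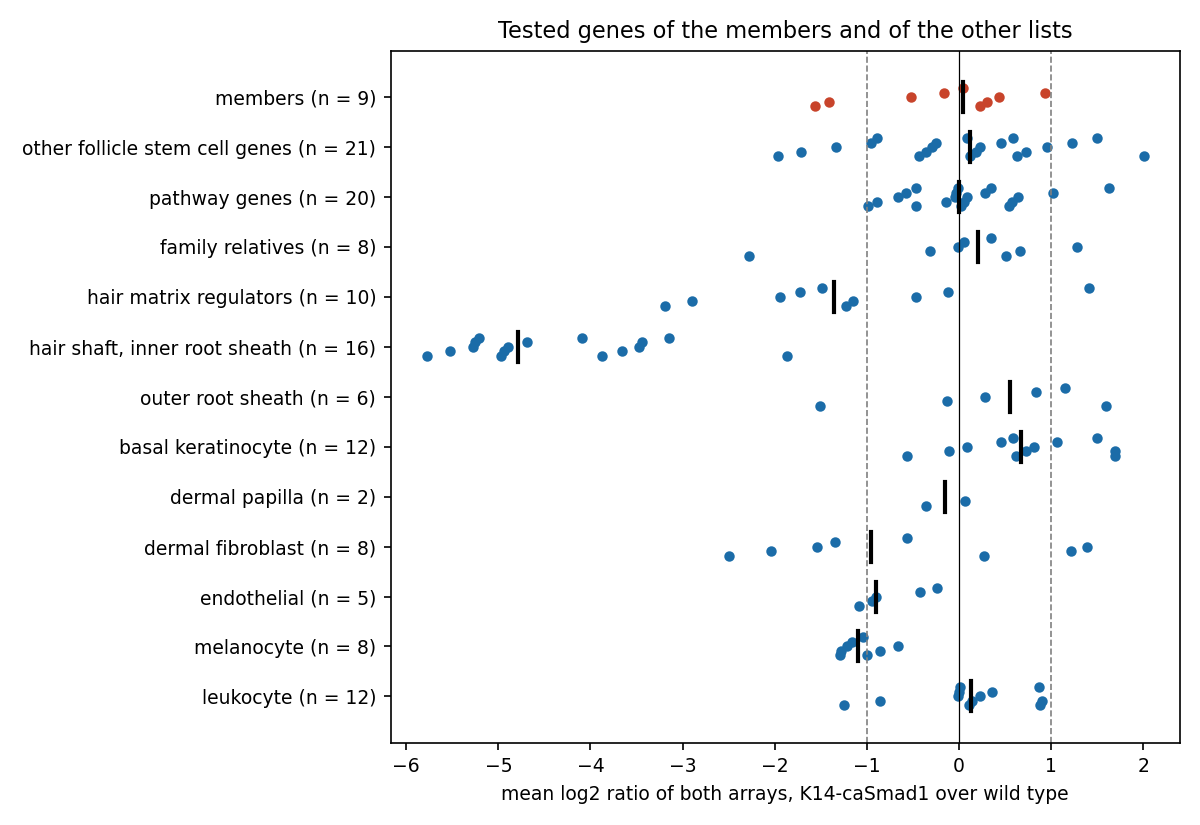
Mean log2 ratio of both arrays for each tested gene of the members (red) and of the other lists (blue), with a black bar at the median and dashed lines at 2-fold. The suprabasal keratinocyte and sebaceous gland lists are not drawn. The members, their pathway genes and the other follicle stem cell genes scatter around 0, whereas all 16 hair shaft genes lie left of the lower dashed line.

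**Figure D5:**
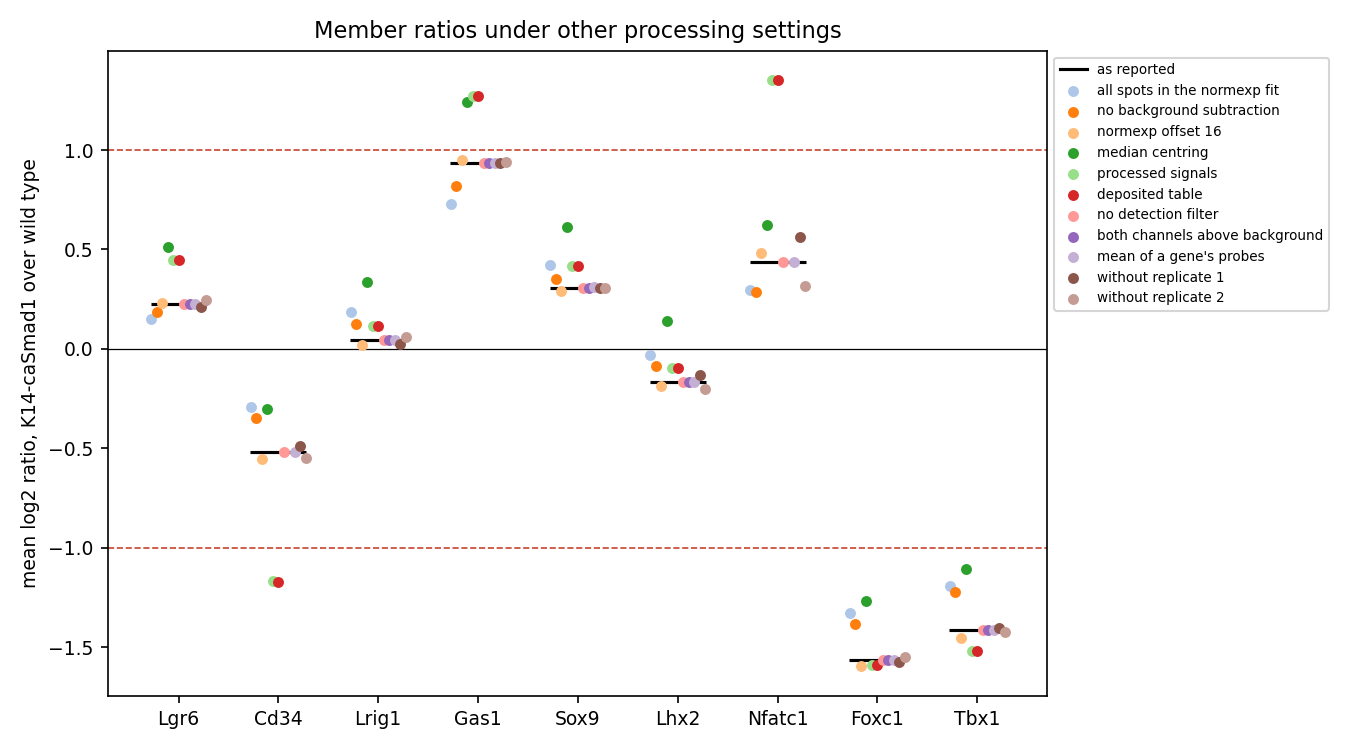
Mean log2 ratio of each tested member (columns) as reported (black bar) and under each other setting (coloured dots), with dashed lines at 2-fold. Foxc1 and Tbx1 stay below the lower line under every setting, and Cd34 lies below it in 2. Gas1 lies above the upper line in 3, Nfatc1 in 2, and Lhx2 lies above 0 in 1.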

How the data were processed

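Per the file headers, both arrays were read by Agilent Feature Extraction 10.5.1.1 and probes are placed on mm9. The deposited files give spot intensity and local background intensity per channel without normalisation, and processed intensity that was background-subtracted, detrended and dye-normalised. The deposited table of the series holds the log10 ratio of Cy5 over Cy3 processed signals. From the mean intensity, background was corrected by normexp with an offset of 50, after leaving out 36 spots of replicate 1 on a non-uniform local background. Ratios were normalised by loess (span 0.3, control spots at weight 0), outlier spots were left out and repeated spots averaged. Signals per channel are loess and Aquantile values.

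A probe was tested if well above background on both arrays of either channel (15110 probes), and a gene was represented by its brightest tested probe. "At least N-fold" sets the dim channel at the lowest signal well above background or at the probe's own signal, the higher, and is open to dye bias. limma 3.58.1 (R 4.3.3) tested the mean ratio with 1 residual degree of freedom. The fit was tested on simulated data. Symbols were updated through RefSeq (GRCm38.p6), by accession for 24844 probes. By rule the text could name all members with each probe, the family relatives, up to 4 called genes of each other list by size of the mean log2 ratio, and the brightest marker of each cell type in wild type. The pathway genes under 2-fold, Plet1, Smad1, Id2, Prdm1, Gata3, Sparc and the genes below background fall outside that rule and were chosen after their values were seen. The members and lists were chosen with earlier results of these data known. p-values cover only the spread between these arrays.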

Additional observations from a re-analysis of the deposited data

How the results depend on the processing

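Under 12 other settings (11 for Cd34 and Nfatc1) every tested member kept its direction except Lhx2, which was 0.14 with median centring. Not all of these settings can move a ratio. An intensity trend in limma's fit changes only p, and the other detection filters left the ratio of each member they kept as it was. Averaging a gene's probes moved only Sox9, from 0.3071 to 0.3106. The deposited table repeats the processed signals, with Foxc1 at -1.5895 and -1.5896. Of 9 tested members 2 were called lower in every setting but 1: with all spots in the background fit the count was 1, the median of the members 0.15 and the count of called genes 776, against 1632. Members called higher numbered 0 as reported, where 480 of 11752 genes were, and 0 in all settings but the following. With median centring 1 was (member median 0.34), where 1109 of 11752 genes were and the median of all genes was 0.22. At 1.5-fold 1 was, where 1550 of 11752 genes were (3841 called either way). With the processed signals 2 were (member median 0.12), where 1256 of 11762 genes were (3133 either way). The deposited table likewise gave 2 (member median 0.12), where 1253 of 11762 genes were called higher (3129 either way). The member median was 0.12 without background subtraction and 0.0733 with no detection filter, over all 10 members. Without replicate 1 or 2 the called genes numbered 1764 and 1746. Each log2 ratio already pairs the genotypes within an array. No paired analysis was possible beyond that because there is 1 group of arrays. Signal over background limits Lgr5, Nfatc1, Cd34 and 1 Lgr6 probe.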

Other observations

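The Foxc1 spot was far brighter on replicate 2 than on replicate 1 in both channels, by 2.83-fold in wild type and 2.57-fold in K14-caSmad1 before normalisation, while its ratio hardly moved. The other member probes had raw signals on replicate 2 between 0.910 and 1.39 times those on replicate 1. Of 14990 tested probes with 1 spot, 48 (0.320%) were at least as much brighter on replicate 2 in both channels as Foxc1.

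Several genes of the other follicle stem cell list gave a large difference at their brightest probe and little at another. A second tested probe read -0.02 for Col18a1, 0.13 for Foxp1 and -0.01 for Id2. The probes of Plet1, under 2-fold, went opposite ways, with 0.63 at the brightest and -0.41 at the other. Members with more than 1 tested probe were limited to Sox9, whose probes ran from 0.12 to 0.50. The values of Foxc1, Tbx1, Gas1, Cd34, Lhx2, Lrig1, Lgr6 and Nfatc1 thus rest on 1 tested probe each.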
